A study of Bos taurus with 12 samples.

Results

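The RNA of 10 glycolytic enzymes, HK1, HK2, GPI, ALDOA, ALDOC, TPI1, GAPDH, PGK1, ENO1 and LDHA, was followed in bovine bone-marrow mesenchymal stem cells (MSCs, the adherent marrow cells that can form cartilage, bone and fat). The genes were listed by name and no measured value entered the rule, but the list was made with earlier results of these data known. Each was found as a probe set whose only gene symbol in the array's annotation was that name, and the probe set with the highest mean was used where a gene had more than 1. All 10 of 10 were found among 18087 named genes and 26773 probe sets. The MSCs came from femurs and tibiae of 3 juvenile cattle donors less than 6 months old, were grown through a first passage at 21% oxygen in high-glucose medium with serum, and were then split. Cells of every donor spent 1 week at 21% oxygen without added growth factor (N0), at 21% oxygen with 10 ng/mL TGF-β3 (N1), at 2% oxygen (H0), or at 2% oxygen with TGF-β3 (H1). TGF-β3 is a growth factor used to drive MSCs toward cartilage, and 2% oxygen, called hypoxia here, was held in a closed workstation, so that media changes did not expose the cells to air. The 4 conditions and 3 donors gave 12 arrays, 1 for each donor in each condition, and the conditions of a donor started from the same cells. The question put to the glycolytic genes was how oxygen and TGF-β3 each moved their RNA, and whether the pair together did more or less than the sum.

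Glycolysis splits glucose into pyruvate. Hexokinases (HK1, HK2) trap glucose as glucose 6-phosphate, GPI turns it into fructose 6-phosphate, phosphofructokinases add a further phosphate, aldolases (ALDOA, ALDOC) split the product, TPI1 interconverts the resulting trioses, and GAPDH, PGK1, phosphoglycerate mutases, ENO1 and pyruvate kinase carry them to pyruvate. LDHA turns pyruvate into lactate and regenerates the NAD+ that GAPDH consumes, which lets the pathway run without respiration. In mammalian cells most of these genes are textbook targets of the hypoxia-inducible transcription factors, and MSCs are known to rely on glycolysis even in air.

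The arrays had similar distributions, with medians of 6.59 to 6.66 on the log2 signal scale, first quartiles of 4.89 to 4.98 and maxima of 14.20 to 14.27. Values are log2 signals throughout, so a difference of 1 is a doubling. Signals of different genes come from different probes, so the levels of the enzymes are not compared with each other. The labelled cell type was checked against 10 mesenchymal stromal markers, whose mean signal lay between 11.8 and 12.4 on every array, and against 8 haematopoietic markers, whose mean lay between 5.54 and 5.73. Of those 8, 2 had means below the first quartile in each group, while CD14 (6.63 to 7.43) and CD68 (6.84 to 7.68) reached above the array medians. The check is rough, since it sets signals of different genes side by side. Of 6 check genes known to respond to low oxygen, limma called none with hypoxia averaged over TGF-β3 by group alone. At an unadjusted p under 0.05, 6 of 6 were higher, against 3.83% of all probe sets. The same genes also moved with TGF-β3. Averaged over oxygen, 4 of the 6 were called higher by group alone, against 4.65% of all probe sets. These were CA9 (1.18), BNIP3 (0.69), VEGFA (0.52) and PDK1 (0.46), while EGLN3 (0.20) and NDRG1 (-0.29) were not called. CA9 and PDK1 gave changes of 1.90 ± 0.32 and 0.71 ± 0.12 (SE), adjusted p = 0.0742 and 0.0807, and both were called with donor as a block (adjusted p = 0.0216 and 0.0087). PMEPA1, a feedback target of TGF-β signalling, rose by 1.90 ± 0.092 with TGF-β3 averaged over oxygen (adjusted p = 3.02e-06). SMAD7, the other check gene for TGF-β3, rose by 0.57 ± 0.16 (adjusted p = 0.0432). At 21% and 2% oxygen alone SMAD7 was not called by group alone (adjusted p = 0.162 and 0.34). With the donor block it was called at both (adjusted p = 0.00515 and 0.0241). In bulk RNA, fewer cells of a type and less RNA per cell cannot be told apart.

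All 10 genes had higher mean signals at 2% than at 21% oxygen, whether or not TGF-β3 was present, by 0.085 to 0.55 without it and 0.13 to 0.53 with it. TGF-β3 divided them. Averaged over oxygen, limma by group alone called HK2 and PGK1 higher (4.65% of all probe sets) and ALDOC lower (4.99%). The other 7 were not called, with GPI on the negative side. With donor as a block TPI1 was called higher as well (adjusted p = 0.0358), when 7.3% of probe sets were called higher. With oxygen and TGF-β3 both changed, HK2 doubled (2.06-fold), PGK1, TPI1, HK1, ALDOA and ENO1 were 1.31- to 1.51-fold higher, and ALDOC, in which the oxygen and TGF-β3 differences had opposite signs, lay close to its starting level.

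**Figure D1:**
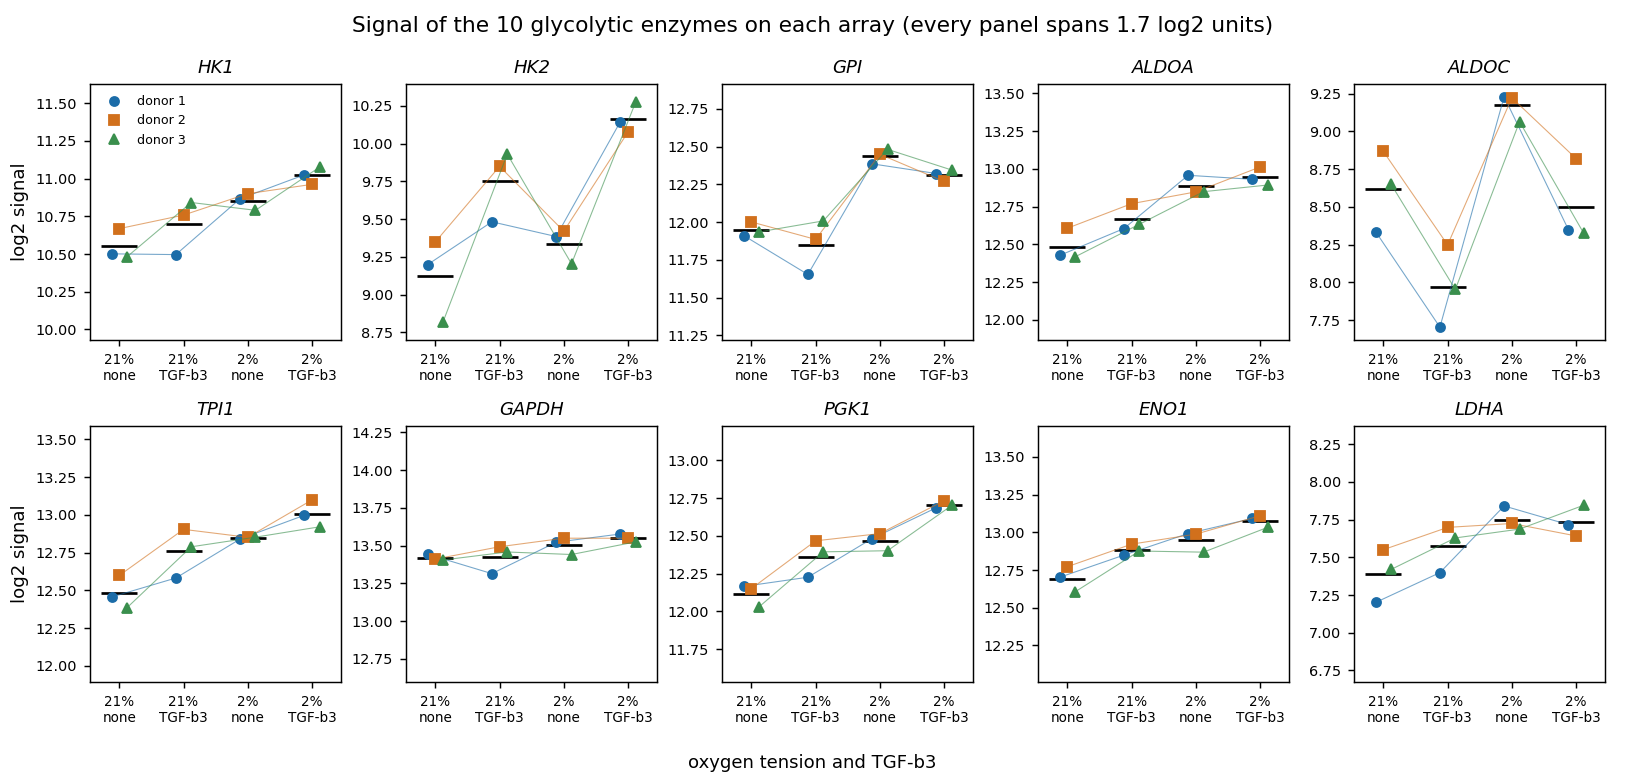
Log2 signal (y axis, every panel spanning 1.7 log2 units) of each enzyme gene on the 12 arrays, by oxygen tension and TGF-β3 (x axis). Symbols and thin lines mark the 3 donors, and black bars the mean of each group of 3. PGK1, TPI1, ENO1, ALDOA and HK1 climb in the same order of groups, HK2 steps up with TGF-β3, and ALDOC steps up with 2% oxygen and down with TGF-β3.

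HK1, the hexokinase expressed in most tissues, had log2 signals of 10.50, 10.67 and 10.48 in N0 (donors 1, 2 and 3), 10.50, 10.76 and 10.84 in N1, 10.87, 10.90 and 10.79 in H0, and 11.02, 10.96 and 11.08 in H1. The order of means was N0, N1, H0, H1. Neighbouring groups overlapped except for H0 and H1, and every array at 2% oxygen was above every array at 21% of the same TGF-β3 status. HK2, the inducible hexokinase of muscle and of growing cells, had 9.20, 9.35 and 8.82 in N0, 9.48, 9.85 and 9.93 in N1, 9.38, 9.42 and 9.20 in H0, and 10.15, 10.08 and 10.28 in H1. Its order was different, N0, H0, N1, H1, and all 6 arrays with TGF-β3 lay above all 6 without it. N0 and H0 overlapped, and the N0 array of donor 3 was the lowest of the 12. GPI, the next enzyme, had 11.91, 12.00 and 11.94 in N0, 11.65, 11.89 and 12.01 in N1, 12.39, 12.45 and 12.48 in H0, and 12.32, 12.27 and 12.35 in H1. Every array at 2% oxygen was above every array at 21%, N1 and N0 overlapped at the bottom, and at 2% oxygen the 3 arrays with TGF-β3 lay below the 3 without.

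ALDOA, the aldolase of muscle and most cultured cells, had 12.43, 12.61 and 12.42 in N0, 12.60, 12.77 and 12.63 in N1, 12.96, 12.85 and 12.85 in H0, and 12.93, 13.01 and 12.89 in H1. The 6 arrays at 2% oxygen stood above the 6 at 21%, while N0 overlapped N1 and H0 overlapped H1. ALDOC, the aldolase best known from brain, had 8.34, 8.87 and 8.65 in N0, 7.70, 8.25 and 7.95 in N1, 9.23, 9.22 and 9.06 in H0, and 8.35, 8.82 and 8.32 in H1. It was lowest in N1 and highest in H0, neither of which overlapped another group, and N0 and H1 overlapped between them. TPI1, which interconverts the 2 trioses that aldolase releases, had 12.46, 12.60 and 12.38 in N0, 12.58, 12.90 and 12.79 in N1, 12.84, 12.85 and 12.85 in H0, and 13.00, 13.10 and 12.92 in H1. Its order was that of HK1, with N1 overlapping both N0 and H0 and with H1 above all other groups.

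GAPDH, which oxidises the triose phosphate and is widely used as a reference gene, had 13.44, 13.41 and 13.40 in N0, 13.31, 13.49 and 13.46 in N1, 13.52, 13.55 and 13.44 in H0, and 13.58, 13.55 and 13.52 in H1. All 12 values fell within 0.26 of each other, neighbouring groups overlapped, and on each array at most 0.142% of probe sets were brighter. PGK1, which makes the first ATP of the pathway, had 12.16, 12.15 and 12.03 in N0, 12.23, 12.47 and 12.39 in N1, 12.48, 12.51 and 12.40 in H0, and 12.69, 12.73 and 12.70 in H1. N0 lay below and H1 above every other array, and N1 and H0 overlapped. ENO1, the enolase of most tissues, had 12.70, 12.77 and 12.61 in N0, 12.85, 12.92 and 12.88 in N1, 12.99, 12.99 and 12.87 in H0, and 13.09, 13.11 and 13.03 in H1. Its groups were arranged as those of PGK1, with overlap between N1 and H0 alone. LDHA, the lactate dehydrogenase subunit that favours lactate formation, had 7.20, 7.55 and 7.42 in N0, 7.40, 7.70 and 7.63 in N1, 7.84, 7.72 and 7.69 in H0, and 7.72, 7.64 and 7.85 in H1. Neighbouring groups overlapped throughout, the N0 array of donor 1 was the lowest, and between 35.2% and 42.4% of probe sets were brighter than this one on each array.

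The oxygen differences had the same sign in nearly every pairing of a donor's cultures. Of 60 within-donor differences between 2% and 21% oxygen (10 genes, 3 donors, with and without TGF-β3), 59 were above 0. The exception was LDHA in donor 2 with TGF-β3 (-0.057). The 10 genes were read on the same 6 pairs of arrays, so the 60 differences are not independent. Without TGF-β3, 10 of the 10 genes were above 0 in all 3 donors, against 15.8% of probe sets. With TGF-β3, 9 were, against 16.6%. GPI rose by 0.48 ± 0.065 (SE) averaged over TGF-β3 (1.39-fold, adjusted p = 0.0329 by limma with group as the only term), with within-donor differences of 0.34 to 0.67 in 6 of 6 pairings. It was the only one of the 10 called in that comparison, in which 0.0448% of all probe sets were called higher. With donor as a block 4 were called higher, against 0.261% of all probe sets, namely GPI (adjusted p = 0.0213), ALDOC at 0.54 (adjusted p = 0.0396), PGK1 at 0.35 (adjusted p = 0.0419) and ALDOA at 0.34 (adjusted p = 0.0419). Their adjusted p without the block were 0.288 for ALDOC, 0.0807 for PGK1 and 0.0964 for ALDOA. The other averaged hypoxia changes, not called in either fit, were 0.31 ± 0.11 for HK2, 0.31 ± 0.070 for HK1, 0.31 ± 0.069 for TPI1, 0.26 ± 0.080 for LDHA, 0.23 ± 0.054 for ENO1 and 0.11 ± 0.053 for GAPDH. The GPI call was lost with array medians made equal (adjusted p = 0.0758), without donor 1, 2 or 3 (adjusted p = 0.852, 0.7 and 0.132), and without any single array except the N1 arrays of donors 1 and 3 (adjusted p between 0.063 and 0.137).

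At each TGF-β3 status taken alone, no gene of the 10 passed. Without TGF-β3 the changes ran from 0.085 ± 0.074 for GAPDH through 0.49 ± 0.093 for GPI (adjusted p = 0.29) to 0.55 ± 0.18 for ALDOC (adjusted p = 0.835), with a median of 0.36 beside 0.0022 over all probe sets. limma called 0 of the 10 where 0.00374% of all probe sets were called, and 0 with the donor block where 0.0112% were. At an unadjusted p under 0.05, 8 of the 10 were higher, against 2.94% of all probe sets, and the exceptions were HK2 and GAPDH. The H0 arrays lay above all N0 arrays for 8 of the 10, again without HK2 and GAPDH, against 5.5% of probe sets. With TGF-β3 the median change was 0.30 beside -0.0047 over all probe sets, and the changes ran from 0.13 for GAPDH to 0.46 for GPI and 0.53 for ALDOC. limma called 0 members and 0% of probe sets, and with the donor block 0 members and 0.0224% of probe sets. Here 8 members had an unadjusted p under 0.05 in the higher direction, against 2.38% of probe sets, this time including HK2 (0.41 ± 0.15) and leaving out LDHA (0.16 ± 0.11) and GAPDH. For 9 members, all but LDHA, the H1 arrays lay above the N1 arrays, against 4.4% of probe sets. Over both statuses together, GPI and ALDOA had all 6 arrays at 2% oxygen above all 6 at 21%, an arrangement seen for 0.247% of probe sets.

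HK2, the entry enzyme, rose with TGF-β3. The within-donor differences were 0.28, 0.50 and 1.11 at 21% oxygen and 0.76, 0.66 and 1.07 at 2%, highest in donor 3 at both tensions. At 2% oxygen HK2 rose by 0.83 ± 0.15 (1.78-fold, adjusted p = 0.0137), the only member called there, against 1.45% of probe sets called higher. At 21% oxygen its change of 0.63 ± 0.15 missed the threshold with group as the only term (adjusted p = 0.0508) and passed it with the donor block (adjusted p = 0.0411). ALDOC gave the opposite sign in 6 of 6 pairings, with differences of -0.63, -0.62 and -0.70 at 21% oxygen and -0.88, -0.40 and -0.74 at 2%. Its changes of -0.65 ± 0.18 and -0.67 ± 0.18 were not called by group alone (adjusted p = 0.0876 and 0.07). They were called with the donor block (SE 0.12 each, adjusted p = 0.0123 and 0.00958).

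Counted over the 10, TGF-β3 at 21% oxygen called 0 members by group alone against 2.75% of probe sets in either direction. With the donor block it called HK2 higher (2.95% of probe sets) and ALDOC lower (3.41%). At an unadjusted p under 0.05, HK2, TPI1, PGK1 and ENO1 were higher (7.64% of probe sets) and ALDOC lower (7.3%). At 2% oxygen the donor block added ALDOC as lower (3.73% of probe sets) and kept HK2 as higher (3.25%). A count of 0 to 2 called among 10 is not set apart from shares of this size. The N1 arrays lay above the N0 arrays for HK2, PGK1 and ENO1 (10.7% of probe sets) and below them for ALDOC (9.97%). At 2% oxygen the H1 arrays lay above the H0 arrays for HK1, HK2, TPI1, PGK1 and ENO1 (10.1% of probe sets) and below them for GPI and ALDOC (9.45%). Leaving out the H1 array of donor 3 took HK2 at 2% oxygen to an adjusted p of 0.0502, and leaving out a whole donor took it to between 0.0556 and 0.153. Without the N1 array of donor 1, HK2 was called at 21% oxygen (adjusted p = 0.0362), and without the H1 array of donor 2, ALDOC was called at 2% (adjusted p = 0.0449).

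Averaged over oxygen, TGF-β3 raised HK2 by 0.73 ± 0.11 (1.66-fold, adjusted p = 0.00143) and PGK1 by 0.24 ± 0.059 (1.18-fold, adjusted p = 0.0239), and lowered ALDOC by a log2 change of -0.66 ± 0.13 (1.58-fold lower, adjusted p = 0.00721). The 2 higher members stand beside 4.65% of probe sets called higher, and the 1 lower beside 4.99% called lower. The donor block added TPI1 at 0.22 (adjusted p = 0.0358, and 0.0753 without it), when 7.3% of probe sets were called higher and 7.47% lower. PGK1, TPI1 and ENO1 were above 0 in 6 of 6 pairings, as HK2 was, and GPI was below 0 in 5 of 6, with an averaged change of -0.11 ± 0.065 (adjusted p = 0.361). The remaining averaged changes were 0.16 ± 0.054 for ENO1 (adjusted p = 0.0933), 0.16 ± 0.070 for HK1, 0.12 ± 0.060 for ALDOA, 0.084 ± 0.080 for LDHA and 0.024 ± 0.053 for GAPDH. HK2 was the only member with all 6 TGF-β3 arrays above all 6 others (3.09% of probe sets), and no member had them all below (3.44%). HK2 stayed called whichever donor or single array was left out, while ALDOC was lost without donor 1 (adjusted p = 0.0712) or donor 3 (0.0952). PGK1 was lost whichever donor was left out (0.0952 to 0.224), without the N1 or H1 array of donor 2 (0.0586 and 0.053) and without the N0, N1 or H0 array of donor 3 (0.0661, 0.0502 and 0.0516), and TPI1 was gained without the N1 array of donor 1 (0.033).

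Markers moved with TGF-β3 as well. The mean of the 10 mesenchymal markers was 12.2 to 12.4 on arrays without TGF-β3 and 11.8 to 12.0 on arrays with it. Averaged over oxygen, 5 of the 10 were called lower by group alone, against 4.99% of all probe sets. The largest changes of these 5 were NT5E (-1.01), PDGFRB (-0.73), PDGFRA (-0.71) and ENG (-0.43). The donor block called 6 lower, against 7.47% of probe sets, and added THY1 (-0.69, adjusted p = 0.000558). The mean of the 5 endothelial markers was 5.47 to 5.65 without and 5.83 to 6.04 with TGF-β3. PECAM1 alone rose among them (2.12 ± 0.17), and the defining endothelial genes CDH5, KDR, VWF and TEK stayed between 4.32 and 6.33 on all arrays. The haematopoietic mean was 5.54 to 5.73 in the 4 groups, the erythroid mean 5.40 to 5.75 (4 genes measured) and the adipocyte mean 5.83 to 6.37 (4 genes). Among the adipocyte genes ADIPOQ, which encodes adiponectin, had a TGF-β3 change averaged over oxygen of -0.95 ± 0.27 (adjusted p = 0.0505, and 0.0195 with the donor block). The 3 measured skeletal muscle markers averaged 5.13 to 5.53. The part of these markers in the TGF-β3 changes was not tested.

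**Figure D2:**
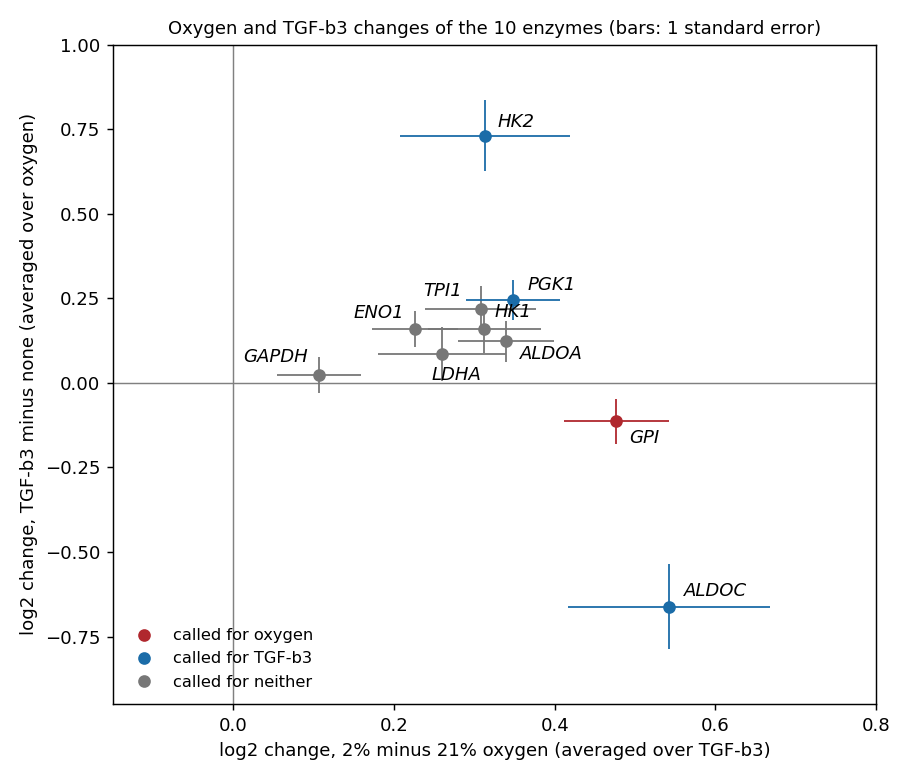
Log2 change with 2% oxygen averaged over TGF-β3 (x axis) against log2 change with TGF-β3 averaged over oxygen (y axis) for the 10 enzymes. Bars are 1 standard error and colours mark calls with group as the only term. All 10 lie to the right of 0, HK2 stands at the top (0.73), ALDOC at the bottom (-0.66), and GPI is the one called for oxygen.

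The isoforms at the same step differed in their TGF-β3 values and less in their oxygen values. Within donors, the HK2 change with TGF-β3 exceeded the HK1 change by 0.48 ± 0.24 (SD, n = 3) at 21% oxygen and by 0.66 ± 0.11 at 2%, in 3 of 3 donors each time. With hypoxia the same difference was -0.087 ± 0.14 without TGF-β3 and 0.090 ± 0.058 with it. The ALDOC change with TGF-β3 minus the ALDOA change was -0.83 ± 0.069 at 21% oxygen and -0.74 ± 0.15 at 2%, whereas with hypoxia it was 0.15 ± 0.19 and 0.25 ± 0.12. These are differences of changes, not of levels, and no test was made of them.

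The combination, H1 against N0, gave the most calls among the 10 genes of the comparisons run. It shares its N0 arrays with hypoxia without TGF-β3 and with TGF-β3 at 21% oxygen, and its H1 arrays with the other single comparisons, so its values are set beside theirs without any overlap being counted. HK2 rose by 1.04 ± 0.15 (2.06-fold, adjusted p = 0.00339), PGK1 by 0.59 ± 0.083 (1.51-fold, adjusted p = 0.00293), TPI1 by 0.53 ± 0.098 (1.44-fold, adjusted p = 0.0131), HK1 by 0.47 ± 0.099 (1.39-fold, adjusted p = 0.0242), ALDOA by 0.46 ± 0.085 (1.38-fold, adjusted p = 0.0122) and ENO1 by 0.39 ± 0.076 (1.31-fold, adjusted p = 0.0172). These 6 of 10 stand beside 1.89% of all probe sets called higher, and the members' median change was 0.42 beside 0.0063 over all probe sets. The donor block added GPI (0.36, SE 0.084, adjusted p = 0.0307), when 3.8% of probe sets were called higher. Without the block GPI had an SE of 0.093 and an adjusted p of 0.057. LDHA (0.34 ± 0.11, adjusted p = 0.139) and GAPDH (0.13 ± 0.074, adjusted p = 0.457) were not called, although the H1 arrays of both lay above their N0 arrays, as they did for 9 of the 10 against 11.2% of probe sets. GAPDH differed by 0.12 to 0.14 in each of the 3 donors. ALDOC was the exception, at -0.12 ± 0.18 (adjusted p = 0.846), with within-donor differences of 0.014, -0.047 and -0.33.

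The within-donor differences of the combination were of similar size in the 3 donors for most of the 6. TPI1 differed by 0.54, 0.50 and 0.54 in donors 1, 2 and 3, ALDOA by 0.50, 0.41 and 0.48, and PGK1 by 0.52, 0.58 and 0.67. HK2 varied most, at 0.95, 0.73 and 1.46. Without the H1 array of donor 2 or the N0 array of donor 3, 2 members remained called, HK2 and PGK1, and the adjusted p of HK1, ALDOA, TPI1 and ENO1 ran from 0.0518 to 0.107. HK1 was also lost without the N0 array of donor 1 (0.0722) or the H1 array of donor 1 or 3 (0.0822 and 0.0815), and ENO1 without the H1 array of donor 1 (0.0679). In a fit of the H1 and N0 arrays alone, ALDOA and ENO1 were not called (0.0545 and 0.0712). Without donor 1 or 2 no member was called, and without donor 3 only HK2 was.

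No departure from additivity was called. The interaction, the hypoxia change with TGF-β3 minus that without, ranged from -0.20 ± 0.16 for LDHA to 0.20 ± 0.21 for HK2 on the log2 scale. Among the members limma called 0, as it did among all 26773 probe sets (0%), with the donor block 0 again (0%), and no member had an unadjusted p under 0.05, against 2.94% of probe sets. The intervals are wide for some genes. The 95% interval for HK2 ran from -0.27 to 0.67 and that for ALDOC from -0.58 to 0.53, while PGK1 (-0.27 to 0.25) and ENO1 (-0.30 to 0.18) were held more tightly.

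**Figure D3:**
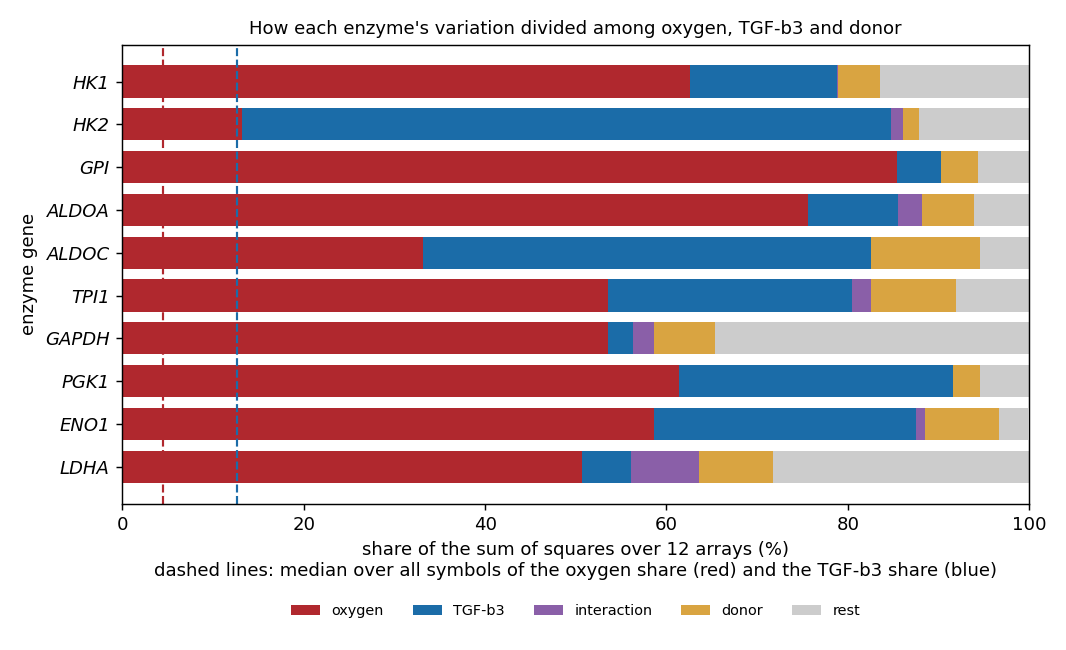
Share of each gene's total sum of squares over the 12 arrays (x axis, %) that belonged to oxygen, TGF-β3, their interaction, donor and the rest, for the 10 enzymes (y axis). Dashed lines give the median over all named genes for oxygen (4.48%, red) and TGF-β3 (12.6%, blue). Oxygen is the widest segment except in HK2 and ALDOC, where TGF-β3 is.

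Dividing each gene's variation over the 12 arrays among the factors gave the same picture as a description. Oxygen held 85.4% of the sum of squares for GPI, 75.6% for ALDOA, 62.6% for HK1, 61.4% for PGK1, 58.6% for ENO1, 53.6% for TPI1 and for GAPDH, and 50.7% for LDHA. For ALDOC it held 33.1% and for HK2 13.2%. TGF-β3 held 71.6% for HK2 and 49.4% for ALDOC, between 26.9% and 30.2% for TPI1, ENO1 and PGK1, and from 2.72% to 16.2% for the other 5. The median over the members was 56.1% for oxygen, 21.5% for TGF-β3 and 6.26% for donor, beside 4.48%, 12.6% and 21.9% over all named genes. GAPDH and LDHA kept the largest unexplained shares, at 34.7% and 28.3%.

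The donor share of the sum of squares was below the oxygen share for every one of the 10 genes. It exceeded the TGF-β3 share for GAPDH (6.76% against 2.72%) and LDHA (8.15% against 5.35%), and reached 12.1% for ALDOC. Averaged over the 4 conditions, donor 2 lay above the mean of the donors for 10 of the 10 genes, by 0.014 (GPI) to 0.23 (ALDOC). Donor 1 lay below it for 9, ENO1 being the exception at 0.0079, and its ALDOC signal was 0.16 below. Donor 3 was above for HK1, GPI and LDHA and below for the other 7. Of the 3 N1 arrays, that of donor 1 gave the lowest signal for 10 of the 10 genes, and donor 1 also had the largest hypoxia difference with TGF-β3, which is taken against that array, for 10 of the 10 (0.24 for ENO1 to 0.67 for GPI).

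Over the 12 arrays, which share donors and treatments, the 45 pairs of members had Pearson correlations of -0.35 to 0.97 with a median of 0.76. Pairs that included ALDOC had a median of 0.25, and the 36 others ran from 0.22 to 0.97. The genes outside the list whose signal followed the members' mean z-score most closely were SLC16A3 (r = 0.99 over 12 arrays), which exports lactate, PFKL (0.96), a phosphofructokinase, DDX41 (0.95), a DEAD-box helicase, PDK1 (0.95), which restrains pyruvate dehydrogenase, KDM3A (0.94), a histone demethylase, and MTCP1 (0.94). Among the members, each of which is part of that mean, r was 0.97 for HK1, 0.96 for ALDOA, 0.69 for HK2 and 0.39 for ALDOC.

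A further 14 glycolytic enzymes or isoforms were measured, and PGAM1 and LDHB were not analysed here. PFKL, the liver-type phosphofructokinase, had log2 signals of 9.45, 9.78 and 9.28 in N0, 9.73, 10.29 and 9.94 in N1, 10.46, 10.64 and 9.98 in H0, and 10.87, 11.00 and 10.70 in H1, in the order of most members. Its hypoxia change averaged over TGF-β3 was 0.86 ± 0.14 (adjusted p = 0.0664, and 0.00834 with the donor block), and it rose by 0.49 ± 0.14 with TGF-β3 averaged over oxygen (adjusted p = 0.0474) and by 1.35 ± 0.19 with both (adjusted p = 0.0034). The other phosphofructokinases were not called. PFKP changed by 0.16 with hypoxia and -0.12 with TGF-β3, and PFKM by 0.011 and -0.20. BPGM, which makes 2,3-bisphosphoglycerate, rose with TGF-β3 by 0.77 ± 0.10 averaged over oxygen (adjusted p = 0.000832) and had a hypoxia change of 0.14 ± 0.10 (adjusted p = 0.873).

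ENO3, the muscle enolase, resembled ALDOC in its signs. Its signals in donors 1, 2 and 3 were 7.85, 8.14 and 8.76 in N0, 7.04, 7.27 and 7.81 in N1, 8.33, 8.44 and 8.88 in H0, and 7.66, 7.61 and 8.36 in H1. It fell by 0.78 ± 0.20 with TGF-β3 averaged over oxygen (adjusted p = 0.0311), and its hypoxia change of 0.40 ± 0.20 was called only with the donor block (adjusted p = 0.0419, and 0.76 without it). PKM, the pyruvate kinase of most tissues, changed by 0.19 ± 0.047 with hypoxia (adjusted p = 0.325) and by -0.10 ± 0.047 with TGF-β3 (adjusted p = 0.225). ADPGK, which phosphorylates glucose with ADP, changed by 0.061 and -0.030, and ENO2, the neuronal enolase, by 0.082 and 0.21. HK3, HKDC1, GAPDHS, PGAM2, PKLR and LDHC, isoforms of other tissues, lay between 4.40 and 6.72 and had changes between -0.082 and 0.15 in both averaged comparisons. Over the 14, none was called for hypoxia by group alone (2 higher with the donor block, PFKL and ENO3, and 3 higher and 0 lower at an unadjusted p under 0.05, against 3.83% and 3.03% of all probe sets). With TGF-β3 averaged over oxygen 2 rose and 1 fell, against 4.65% and 4.99% of all probe sets. The median hypoxia change of the 14 was 0.072 beside the members' 0.31. That median includes the low-signal isoforms of other tissues, and 13 of the 14 changes were above 0.

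**Figure D4:**
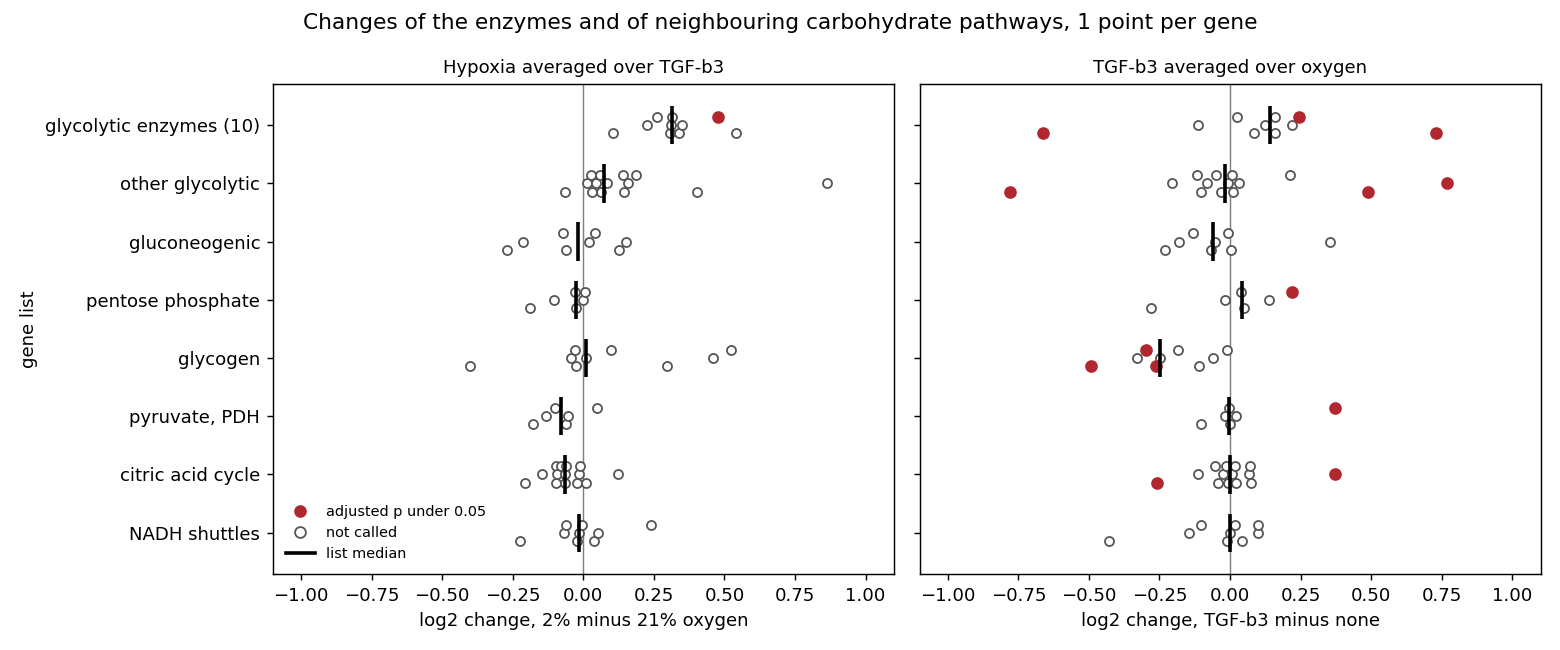
Log2 change of each gene (1 point each) with 2% oxygen averaged over TGF-β3 (left) and with TGF-β3 averaged over oxygen (right), by gene list (y axis). Filled points passed an adjusted p of 0.05 with group as the only term, and black bars are list medians. The 10 enzymes lie to the right of 0 in the hypoxia panel, where the medians of the lists outside glycolysis lie between -0.079 and 0.0097.

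In the neighbouring carbohydrate pathways no gene was called for oxygen, and the list medians lay near 0. With hypoxia averaged over TGF-β3, limma with group as the only term or with the donor block called none of 8 gluconeogenic enzymes (median -0.020), 6 pentose phosphate enzymes (median -0.028), 9 genes of glycogen metabolism (median 0.0097), 6 genes of pyruvate import and the pyruvate dehydrogenase complex (median -0.079), 14 citric acid cycle genes (median -0.065) or 9 genes of the cytosolic NADH shuttles (median -0.015). At an unadjusted p under 0.05, 4 of these 52 genes were higher (7.69%, against 3.83% of all probe sets) and 6 lower (11.5%, against 3.03%). The 9 glycogen genes held 3 of the higher (33.3% of that list) and 1 of the lower (11.1%). Their changes ran from -0.40 to 0.52, so their median near 0 covers differences in both directions. GBE1, the glycogen branching enzyme, came nearest at 0.52 ± 0.13 (adjusted p = 0.295, and 0.0548 with the donor block), and was singled out after its value was seen. With TGF-β3 averaged over oxygen and group as the only term, 3 of the 9 glycogen genes were called lower, against 4.99% of all probe sets. GYG1, which primes glycogen, fell by 0.49, PYGB, a glycogen phosphorylase, by 0.30, and PGM1, which links glucose 1-phosphate to glucose 6-phosphate, by 0.26. TKT of the pentose phosphate pathway (0.22), the pyruvate carrier MPC1 (0.37) and IDH3A of the citric acid cycle (0.37) were called higher, against 4.65% of probe sets. SDHA, shared by that cycle and the respiratory chain, was called lower and fell by 0.26. With the donor block 5 of the 9 glycogen genes were called lower with TGF-β3, against 7.47% of probe sets, GBE1 (-0.33) and PGM2 (-0.25) being added. In the other lists TALDO1 (-0.28), GPD1L (-0.43) and FBP1 (-0.23) were also called lower. PC (0.35) was called higher there, against 7.3% of probe sets. With both treatments GYG1 fell by 0.90 and SDHA by 0.40, against 1.86% of probe sets called lower. The donor block added TALDO1 (-0.38) and GPD1L (-0.44) as lower (3.84% of probe sets) and IDH3A (0.38) as higher (3.8%).

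HK1 and GAPDH each had a second probe set. That of HK1, with a mean of 8.55, had changes of the same sign, 0.34 ± 0.090 with hypoxia averaged over TGF-β3 (adjusted p = 0.358) and 0.41 ± 0.13 with both treatments, where it was not called (adjusted p = 0.117) while the brighter probe set was. That of GAPDH, at 4.36 to 5.10, lay near the first quartile of the arrays and was called in no comparison, with a sign opposite to the brighter one for hypoxia without TGF-β3 (-0.21 ± 0.16), for TGF-β3 at 21% oxygen (-0.26 ± 0.16), for TGF-β3 averaged over oxygen (-0.052 ± 0.12) and for both treatments (-0.050 ± 0.16).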

How the data were processed

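Total RNA from 12 cultures was measured on 12 bovine Affymetrix arrays that cover whole transcripts. The deposited log2 values were normalised by the authors with robust multi-array averaging (RMA), per the labels. Partek 6.6 is also listed in the submitters' processing notes, with no role given. The log2 scale was taken from the range of the values. Gene names came from the platform annotation, where 18550 probe sets have 1 symbol, 595 several and 7628 none. HK1 is listed there with the same symbol under more than 1 gene identifier. Linear models were fitted in R 4.3.3 by limma 3.58.1 to all 26773 probe sets and 12 arrays, group being the only term, followed by eBayes. The Benjamini-Hochberg adjustment of each comparison ran across every probe set, and the threshold was an adjusted p of 0.05. "Called" means passing it. The script was tested on simulated data. Titles give the donor, so same-numbered arrays are paired. The arrays titled Donor 3 carry a description that starts with another number, and the title was used. Deviations from group means correlated at 0.18 to 0.60 for 18 same-donor pairs and -0.44 to 0.10 for 36 others. Fits with donor as a block were run beside each comparison. Standard errors printed after ± are those of the fit with group as the only term, also where a p of the donor block follows. The 10 genes, the gene lists and the tests were chosen with earlier results of these data known. Named genes are the 10, the other glycolytic enzymes measured, up to 4 called genes of each other list, check genes fixed for oxygen and TGF-β3, and the 6 genes most correlated with the members' mean. With 3 donors, precision is limited by the number of arrays.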

Additional observations from a re-analysis of the deposited data

How the results depend on the processing

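The number of the 10 genes called moved with the fit, and so did the size of some changes. Over all alternatives run, HK2 ranged from 0.062 to 0.33 for hypoxia without TGF-β3. It ranged from 0.39 to 0.81 for TGF-β3 at 21% oxygen. PGK1 moved less for hypoxia averaged over TGF-β3, from 0.31 to 0.37. For hypoxia averaged over TGF-β3, 1 was called, against 4 with the replicate block of donors, 3 with a random donor block, 0 with equal array medians, 3 without probe sets below the median, 3 with an intensity trend, 2 with 1 probe set per symbol and 0 to 1 when a donor or an array was left out. For TGF-β3 at 21% oxygen the count of 0 became 2 with the replicate block, 2 with the random block, 2 without dim probe sets, 1 with the trend, 1 with 1 probe set per symbol and 0 to 1 on leaving out. At 2% oxygen the count of 1 became 2 with the replicate block, the random block, without dim probe sets and with 1 probe set per symbol, and 0 to 2 on leaving out. For TGF-β3 averaged over oxygen 3 became 4 with the replicate block, 5 with the random block, without dim probe sets and with the trend, and 1 to 4 on leaving out. For both against neither 6 became 7 with the replicate block, 7 with the random block and 0 to 6 on leaving out. Hypoxia at a single TGF-β3 status and the interaction stayed at 0 under every alternative run. Values that changed sign were close to 0. GAPDH with TGF-β3 at 21% oxygen gave -0.011 with equal medians, -0.13 with the mean of its probe sets and -0.038 to 0.067 on leaving out. That mean also gave -0.062 for hypoxia without TGF-β3 and -0.014 for TGF-β3 averaged. LDHA with TGF-β3 at 2% oxygen ran from -0.10 to 0.038 and ALDOC with both from -0.28 to 0.0052. Interactions that crossed 0 were PGK1 (0.017 with equal medians, -0.082 to 0.046 on leaving out), HK1 (-0.013 after quantile normalization, -0.080 to 0.092), ALDOC (-0.19 to 0.12), GAPDH (-0.026 to 0.11) and GPI (-0.14 to 0.065). With 3 donors, leaving one out keeps 8 arrays, so calls lost there come from a fit on fewer samples.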
